A study of Mus musculus with 12 samples.

Results

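The microRNAs (miRNAs) of young adult mouse liver were set against those of fetal mouse liver. From the 12 livers of the series, 6 were taken by the age in their labels: 3 at 7 weeks after birth and 3 at embryonic day 15.5 (e15.5). The 3 livers at 2 weeks and the 3 at 3 weeks entered only the estimate of the spread. All mice were C57Bl/6, and the labels name no treatment and no transgene for either age. The 7-week livers came from males and the e15.5 livers are labelled as mixed in sex, so age and sex cannot be told apart. The sources used here do not say whether a fetal sample was 1 embryo or several pooled, and p-values then measure the spread between samples, which at e15.5 may not be that between mice. The nanoString nCounter mouse miRNA assay, which counts fluorescent barcodes hybridised to tagged mature miRNAs, gave log2 values of 355 mouse probes, of which 6 name 2 miRNAs each. Values at or below background all stand at a floor of -9.97. A difference is 7 weeks minus e15.5 on the log2 scale with its standard error, and a probe was called where limma's p-value, adjusted over the 355 probes, was below 0.05.

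A miRNA is a short RNA cut from a hairpin precursor, and the bases near its 5′ end, the seed, pair with messenger RNAs whose translation and stability it lowers. The fetal liver is the main site of blood formation, and erythroid precursors lie among dividing immature hepatocytes. In the adult liver most of the tissue is mature hepatocytes that seldom divide, and blood formation has moved to the bone marrow. Several miRNA groups are known for these states: miR-122 and miR-192 for hepatocytes, miR-144, miR-451 and miR-486 for red cells, the miR-17-92 clusters for proliferation, let-7 for differentiated cells, and the imprinted Dlk1-Dio3 cluster for fetal tissues.

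The mature sequences below, from RefSeq (GRCm38.p6), are those on which the results turn, with the seed (bases 2 to 8) in capitals. The miR-29 family shared a seed and every measured member rose:
miR-29a: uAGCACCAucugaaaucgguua
miR-29b: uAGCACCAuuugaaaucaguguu
miR-29c: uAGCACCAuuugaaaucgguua

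The let-7 and miR-15 families each held members called in opposite directions under 1 seed, for let-7 through let-7i alone:
let-7c: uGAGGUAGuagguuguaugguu
let-7b: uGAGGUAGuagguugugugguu
let-7e: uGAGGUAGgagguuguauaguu
let-7i: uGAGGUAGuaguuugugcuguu
miR-15b: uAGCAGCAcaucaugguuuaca
miR-16: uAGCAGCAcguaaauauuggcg
miR-195: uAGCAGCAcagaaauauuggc

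The miR-99/100 family did so too:
miR-99a: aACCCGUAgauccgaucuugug
miR-100: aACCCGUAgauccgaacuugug
miR-99b: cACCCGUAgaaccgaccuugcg

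In the miR-17-92 and paralogous clusters, where miR-19a, miR-19b and miR-25 have other seeds, these members shared a seed and were lower at 7 weeks:
miR-20a: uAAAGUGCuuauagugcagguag
miR-93: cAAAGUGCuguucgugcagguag
miR-106b: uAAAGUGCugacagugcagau

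The blood-cell miR-144 and the hepatocyte-list miR-101a have the same bases 2 to 7 and moved in opposite directions, and of the miR-142 hairpin the 3p arm was called lower and the 5p arm was not called:
miR-144: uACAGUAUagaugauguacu
miR-101a: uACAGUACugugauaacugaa
miR-142-3p: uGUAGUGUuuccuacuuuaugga
miR-142-5p: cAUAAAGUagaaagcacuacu

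Within the Dlk1-Dio3 cluster miR-376b was the brightest fetal probe and miR-154 the only probe called higher:
miR-376b: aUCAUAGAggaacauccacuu
miR-154: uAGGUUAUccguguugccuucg

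Of the 355 probes, 159 differed between the ages (44.8%), with 66 higher (18.6%) and 93 lower (26.2%) at 7 weeks. Counts within a list below are to be read beside these shares. After quantile normalisation the split was 84 higher and 68 lower. Floor values entered 72 of the calls: 6 probes stood there in every fetal liver and in no adult one, and 30 showed the reverse. Against a group at the floor no fold is given, and the adjusted p of such a probe is not a measure of precision. In all 6 livers 140 probes were above the floor, and of these 53 were higher (37.9%) and 34 lower (24.3%). Their median difference was 0.0, and the ages did not overlap in 104 of them (74.3%). Centring each liver on its 100 brightest probes lowered every difference by 0.27.

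Total linear signal was 148505 to 172057 at e15.5 and 236867 to 267915 at 7 weeks, 1.55-fold higher with no overlap (exact two-sided permutation test, p = 0.1, the smallest that 3 livers against 3 can give). The depth per lane is unknown. The number of probes above the floor overlapped, at 212, 291 and 311 at e15.5 and 226, 248 and 173 at 7 weeks (exact p = 0.3). The e15.5 liver of mouse 1 and the 7-week liver of mouse 3 had the fewest, and without them 162 probes were called, 61 higher and 101 lower. Over the 140 probes above the floor in all 6, livers of 1 age correlated at 0.93 to 0.98 and livers of different age at 0.58 to 0.68; these points are probes, not replicates.

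The brightest probes of the ages differed. At e15.5 the 10 brightest, in order, were miR-720, miR-122, the combined miR-20a/miR-20b probe, miR-144, miR-1944, miR-142-3p, miR-15b, miR-16, miR-126-3p and miR-15a. At 7 weeks they were miR-122, miR-720, miR-22, miR-148a, miR-126-3p, miR-21, let-7g, miR-29a, the combined miR-1937a/miR-1937b probe and let-7a. The erythroid miR-144 went from rank 4 to rank 52, the leukocyte miR-142-3p from 6 to 48 and miR-20a/miR-20b from 3 to 27. In the other direction miR-21 went from rank 57 to 6, miR-29a from 55 to 8 and miR-148a from 33 to 4. The 10 brightest probes held 54.7% to 59.3% of the signal in the e15.5 livers and 71.5% to 74.6% in those of 7 weeks. The entry miR-720, which is known to derive from a transfer RNA, was not called (14.84 ± 0.38 at e15.5 and 15.26 ± 0.22 at 7 weeks, SD, n = 3; adjusted p = 0.083). Among the 10 brightest probes of either age it was the only one whose direction turned under a scaling tried, to -1.31 after quantile normalisation.

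**Figure D1:**
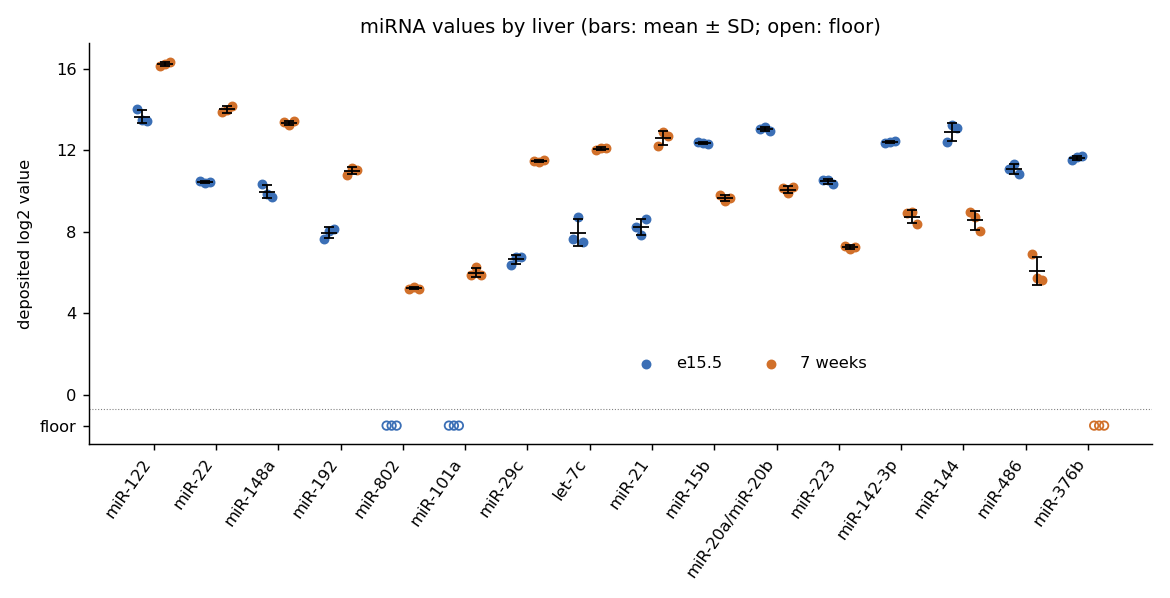
Deposited log2 values of 16 probes in each of the 3 e15.5 livers (blue) and 3 livers of 7 weeks (orange), with mean ± SD and floor values as open points on the dotted strip. For all 16 probes the ages do not overlap, and miR-802, miR-101a and miR-376b are at the floor in every liver of 1 age.

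All 11 measured probes of the adult hepatocyte list were higher at 7 weeks, beside 18.6% of all probes. Of these, 8 were above the floor in all 6 livers, and the ages overlapped in none of the 8. Over all 140 such probes the ages did not overlap in 74.3%. The median difference of the 8 was 2.83, against 0.0 over the 140. The list was chosen with earlier results of these data known, so these counts describe it and are no independent support. The dominant hepatocyte miRNA, miR-122, which holds down non-hepatic transcripts and supports lipid metabolism, stood at 14.0, 13.5 and 13.42 in the e15.5 livers and at 16.13, 16.24 and 16.34 in those of 7 weeks. Each adult liver exceeded each fetal one, by 2.60 ± 0.19 on average or 6.07-fold (limma, adjusted p = 5.9e-07; exact permutation p = 0.1). Its share of the total signal was 9.5%, 7.07% and 7.36% at e15.5 and 30.37%, 31.68% and 30.96% at 7 weeks.

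Larger differences than that of miR-122 were found in the same list. The value of miR-22, a broadly expressed miRNA abundant in adult liver (chr11:75463772-75463793, plus strand), was 10.49, 10.38 and 10.42 at e15.5 and 13.86, 13.95 and 14.18 at 7 weeks. That is an 11.9-fold difference, with the livers of each age close together.

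The value of miR-148a (chr6:51269829-51269850, minus strand), which is known to promote hepatocyte maturation in mice and restrains cholesterol uptake receptors, was 10.32, 9.87 and 9.72 at e15.5 and 13.4, 13.23 and 13.41 at 7 weeks, 10.4-fold higher. Its relatives with the same seed were not called: miR-148b was 7.30 ± 0.20 and 7.30 ± 0.25 (SD, n = 3; adjusted p = 1.0) and miR-152 was 8.09 ± 0.03 and 8.41 ± 0.03 (adjusted p = 0.16). The ages did not overlap for miR-152, which was called higher with only the 6 livers in the fit (adjusted p = 0.0028) and without 2-week mouse 1 (0.038). After quantile normalisation both were called higher, by 0.66 and 0.62, which is below the 3.37 ± 0.16 of miR-148a on the deposited scale.

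The clustered miR-192 and miR-194, typical of liver and gut epithelium, were 8.18-fold and 6.98-fold higher. Their e15.5 livers lay at 7.66, 8.05 and 8.15 for miR-192, against 10.79, 11.11 and 11.05 at 7 weeks. The remaining measured members were miR-365 (2.85 ± 0.28), miR-101b (2.31 ± 0.38) and miR-193b (0.99 ± 0.26, adjusted p = 0.010), the smallest difference of the list.

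The other 3 members appeared from the floor. The value of miR-802, a miRNA enriched in liver, was at the floor in every fetal liver and 5.2, 5.3 and 5.21 at 7 weeks (chr16:93369737-93369758, plus strand). In the same way miR-101a (chr4:101346957-101346977, minus strand) reached 5.86, 6.25 and 5.88, and miR-193 (chr11:79712009-79712030, plus strand) reached 5.86, 5.4 and 5.84. These adult values are low beside those of the rest of the list, but every adult liver held them and no fetal liver did. Among all probes only miR-342-3p, miR-195 and miR-1902 showed the same pattern, and miR-1902 was no longer called when any of the 6 livers, or 3-week mouse 1, was left out (adjusted p up to 0.10).

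The miR-29 family, known to repress collagens and other matrix transcripts and DNA methyltransferases, included the probe that rose most of the 140 above the floor in all 6 livers. The value of miR-29c (chr1:195037600-195037621, plus strand) was 6.39, 6.77 and 6.77 at e15.5 and 11.47, 11.43 and 11.54 at 7 weeks, a 28.6-fold difference (4.84 ± 0.11, adjusted p = 7.9e-11). For miR-29a (chr6:31062673-31062694, minus strand), which differs from miR-29c by 1 base of 22, the values were 8.32, 8.37 and 8.39 against 12.38, 12.25 and 12.52, 16.2-fold higher. The remaining member, miR-29b, was 12.9-fold higher. Because miR-29a and miR-29c differ by a single base, the probes may share signal, which was not tested.

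Among single miRNAs, miR-21, which is abundant in many adult tissues (chr11:86584120-86584141, minus strand), was 8.24, 7.83 and 8.65 at e15.5 and 12.21, 12.88 and 12.7 at 7 weeks. The 20.5-fold difference (4.36 ± 0.28) was several times the range within either age.

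All 5 probes of the miR-30 family, known for roles in epithelial differentiation and in bile duct formation in zebrafish, were higher, with differences between 2.01 and 2.71 and a median of 2.4. Of these, miR-30a was tightest, at 7.46, 7.3 and 7.28 against 10.06, 10.04 and 10.06 (6.54-fold). From the clusters miR-23a/27a/24 and miR-23b/27b/24, linked to endothelial and lipid regulation, 4 of 5 probes were higher: miR-23b 7.79-fold, miR-27b 5.64-fold, miR-23a by 1.64 ± 0.11 and miR-27a by 1.15 ± 0.09. The fifth, miR-24, was 4.19, 6.57 and 6.09 at e15.5 and 6.82, 7.03 and 6.8 at 7 weeks, and was not called (adjusted p = 0.075) although the ages did not overlap; after quantile normalisation it was called (0.013). Both miR-26 probes were higher, miR-26b by 4.32-fold, whereas for miR-26a (1.63, 5.54 and 4.57 at e15.5 against 5.93, 6.47 and 6.05) leaving out any of 10 single livers ended the call (adjusted p up to 0.11).

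Of the 4 metabolic miRNAs listed, only miR-378, hosted by the coactivator gene Ppargc1b, was called (6.92, 5.95 and 6.86 at e15.5 against 8.8, 8.74 and 9.01, 4.84-fold). The sterol-linked miR-33 (adjusted p = 0.28) and the insulin-linked miR-103 and miR-107 (0.49 and 0.67) were not called, and their ages overlapped.

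**Figure D2:**
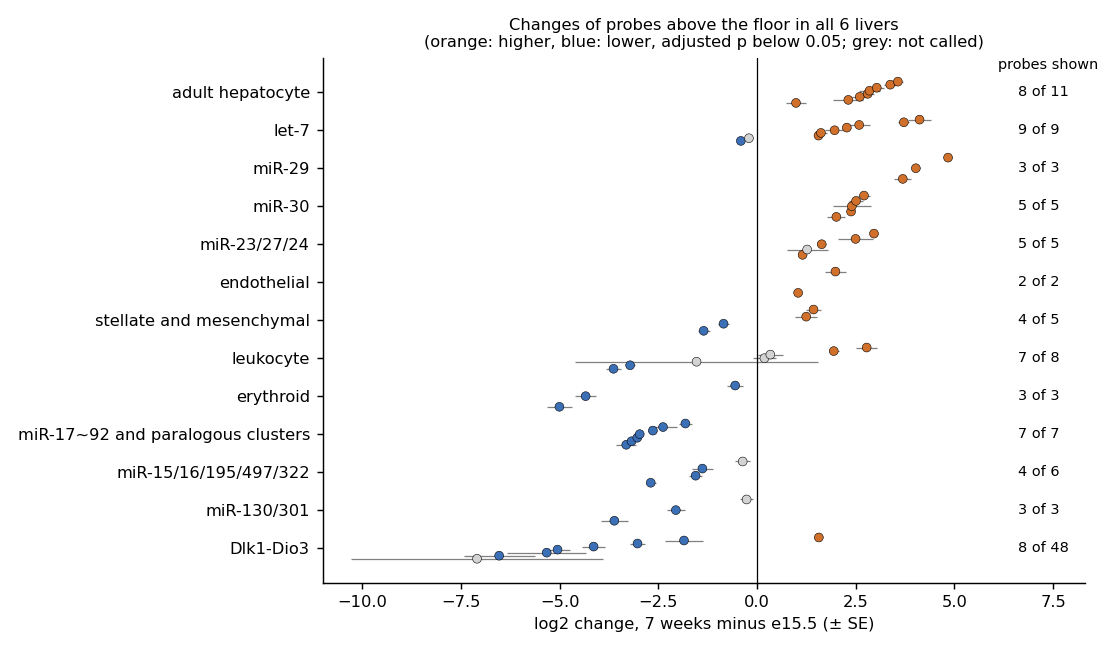
Difference in log2 value (7 weeks minus e15.5, ± SE) for each probe above the floor in all 6 livers, by list. Orange points were called higher, blue points lower and grey points were not called; the numbers at the right give how many of a list's probes are shown, so that 40 of the 48 Dlk1-Dio3 probes are left out because of floor values.

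The let-7 family marks differentiated cells and represses growth regulators such as Lin28 and Hmga2. Of its 9 probes, all above the floor in all 6 livers, 7 were higher, let-7i was lower and let-7e was not called. The largest difference was that of let-7c, at 7.67, 8.74 and 7.48 in the e15.5 livers and 12.02, 12.12 and 12.1 at 7 weeks, 17.3-fold higher. Its near copy let-7b, different by 1 base of 22, was 7.53, 8.05 and 7.51 against 11.41, 11.34 and 11.5 (13.2-fold). The next were let-7f (2.59 ± 0.26), let-7g (2.27 ± 0.12), miR-98 (1.96 ± 0.23), let-7a (1.62 ± 0.16) and let-7d (1.56 ± 0.09).

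Against these, let-7i (chr10:122985698-122985719, minus strand) was 10.21, 10.27 and 10.03 at e15.5 and 9.84, 9.67 and 9.77 at 7 weeks. Its ages did not overlap, and it was 1.33-fold lower (adjusted p = 0.0032), a call that ended when the variances were moderated without a trend (0.093). The value of let-7e (chr17:17830366-17830387, plus strand) was 8.82, 8.91 and 8.67 against 8.55, 8.64 and 8.6 (-0.20 ± 0.11, adjusted p = 0.19; -0.47 and called lower after centring).

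The miR-99/100 and miR-125 miRNAs lie in clusters with let-7 genes. Of 6 probes 3 were higher, 2 lower and miR-125a-3p was not called, beside 18.6% higher and 26.2% lower of all probes. From the miR-99b/let-7e/miR-125a cluster on chromosome 17, miR-99b (chr17:17830194-17830215, plus strand) was 6.99, 7.7 and 7.24 against 6.11, 6.22 and 5.75, 2.44-fold lower, and miR-125a-5p was 1.80-fold lower (adjusted p = 0.0062). The call of miR-99b was lost after quantile normalisation (-0.26, adjusted p = 0.38). From the same hairpin as miR-125a-5p, miR-125a-3p was at the floor, 4.67 and 5.18 at e15.5 and 6.95, 7.6 and 6.5 at 7 weeks. Its ages did not overlap, it was not called (adjusted p = 0.28), and it was called higher after quantile normalisation (0.014) and on log2 of the linear value plus 10 (0.024).

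From the other clusters miR-99a (chr16:77598940-77598961, plus strand) was 7.93, 7.83 and 7.89 against 8.91, 8.98 and 9.07, 2.15-fold higher, and miR-125b-5p was 2.24-fold higher. The value of miR-100 (chr9:41531437-41531458, plus strand), which differs from miR-99a by 1 base, was -0.81 in e15.5 mouse 1 and at the floor in the other 2 fetal livers, against 6.84, 6.47 and 7.03 at 7 weeks.

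All 3 erythroid probes, above the floor in all 6 livers, were lower at 7 weeks, though by very different amounts. Of all such probes 24.3% were lower. The red-cell miR-486, whose host gene is ankyrin 1 (Ank1), was 11.1, 11.32 and 10.84 at e15.5 and 6.89, 5.72 and 5.64 at 7 weeks, 32.1-fold lower. The value of miR-144 (chr11:78073047-78073066, plus strand), a GATA1 target in red cell precursors, was 12.4, 13.23 and 13.09 against 8.95, 8.7 and 8.05, 20.2-fold lower. In both the ages were far apart.

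From the same transcript as miR-144, miR-451, which is abundant in circulating red cells and cut by Ago2 rather than Dicer, was 12.23, 12.32 and 12.1 against 12.19, 11.58 and 11.23. The ages overlapped, and the call (-0.55 ± 0.20, adjusted p = 0.046) held without 7-week mouse 1 but ended on leaving out any of the other 11 livers (adjusted p up to 0.16). In bulk tissue fewer cells of a type and less RNA per cell cannot be told apart. The summed linear signal of the 3 erythroid probes was 12410, 17250 and 14940 at e15.5 and 5271, 3531 and 2712 at 7 weeks, and its part in the other differences was not tested.

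Of the 8 leukocyte probes 3 were higher, 2 lower and 3 not called, beside 18.6% higher and 26.2% lower of all probes. The median difference was 0.19 over the 7 above the floor in all 6. The myeloid miR-223 was 10.53, 10.55 and 10.32 at e15.5 and 7.32, 7.17 and 7.27 at 7 weeks, 9.27-fold lower. The pan-leukocyte miR-142-3p (chr11:87756903-87756925, plus strand) was 12.33, 12.38 and 12.44 against 8.93, 8.95 and 8.36, 12.4-fold lower. Both separated the ages by far more than livers of an age differed.

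The lymphocyte-rich miR-150, in contrast, was 3.98, 4.42 and 4.91 at e15.5 and 7.45, 7.05 and 7.14 at 7 weeks, 6.85-fold higher. The inflammatory feedback regulator miR-146a was 3.85-fold higher, and the lymphoid miR-342-3p was at the floor in all fetal livers and 6.45, 5.82 and 5.67 in adult ones. Not called were miR-155 (adjusted p = 0.67), miR-146b (0.79) and miR-142-5p, at 6.35, 5.72 and 6.13 against 6.29, 6.58 and 6.33 (0.44). The summed signal of the list went from 7061 to 7461 at e15.5 to 1748 to 1993 at 7 weeks; miR-142-3p alone gave 5141 to 5564 of the fetal sum.

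The miR-17-92 cluster and its paralogs, MYC and E2F targets that promote proliferation and restrain apoptosis, were lower in all 7 probes, under every alternative tried and without any liver in turn. Their median difference was -2.97, against 0.0 over the 140 probes, and 26.2% of all probes were lower. This list too was chosen with earlier results of these data known, so the comparison is a description. The combined miR-20a/miR-20b probe was 13.04, 13.16 and 12.92 at e15.5 and 10.14, 9.88 and 10.19 at 7 weeks, 7.83-fold lower. The tightest was miR-19a, at 11.64, 11.66 and 11.62 against 8.63, 8.54 and 8.67 (8.17-fold lower, adjusted p = 2.0e-10).

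The combined miR-106a/miR-17 probe was 9.04-fold lower and miR-93 (chr5:138165574-138165596, minus strand) 9.93-fold lower, at 9.78, 9.02 and 9.49 against 6.03, 6.08 and 6.24. Its cluster neighbours miR-25 and miR-106b were 6.22-fold and 3.51-fold lower, and miR-19b was 5.20-fold lower. Together the 7 probes gave 21550, 20380 and 19540 linear units at e15.5 and 2857, 2586 and 2786 at 7 weeks, the latter lower in every liver.

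The miR-15/miR-16 family, which shares a seed and represses cyclins and Bcl2, moved in both directions. Beside 26.2% lower and 18.6% higher over all probes, 3 of its 6 probes were lower, 1 was higher and 2 were not called. The lowest relative to e15.5 was miR-15b (chr3:69009775-69009796, plus strand), at 12.38, 12.35 and 12.28 against 9.79, 9.49 and 9.64, 6.46-fold lower. Less far apart were miR-15a, 2.94-fold lower, and the X-linked miR-322, 2.61-fold lower (lost after quantile normalisation, adjusted p = 0.14).

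Their relative miR-16 was 12.56, 12.13 and 12.28 against 11.89, 12 and 11.99, and was not called (adjusted p = 0.15) although the ages did not overlap; it was called lower after centring or quantile normalisation. The opposite change was that of miR-195 (chr11:70235062-70235082, plus strand), known to enforce cell cycle arrest in mouse heart, which was at the floor in all 3 fetal livers and 3.32, 4.15 and 4.44 in adult ones. Its genomic neighbour miR-497 was above the floor in 1 fetal and all adult livers and was not called (adjusted p = 0.12). In the miR-130 family, with miR-301, miR-130b was 12.2-fold and miR-301a 4.16-fold lower, whereas miR-130a was 10.36 ± 0.20 and 10.09 ± 0.04 (SD, n = 3) and was not called (adjusted p = 0.25). The ages of miR-130a did not overlap, and it was called lower after centring on the 100 brightest probes (-0.53, adjusted p = 0.0095).

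The imprinted Dlk1-Dio3 cluster is expressed from the maternal chromosome and is active in fetal and neural tissues. Its hairpins lie on chr12:109563692-109743795 (GRCm38.p6), where RefSeq placed 52 probes, 4 of them outside the list of 48. Of the 52, 33 were lower, 1 was higher and 18 were not called, beside 26.2% lower and 18.6% higher over all probes. Of the other 6 probes on chromosome 12, none was lower and 2 were higher. Within the list 31 were lower and 1 higher, from 26 to 32 lower when livers were left out in turn, 24 with only the 6 livers in the fit, and 31 without the 2 livers with most floor values. Summed linear signal was 16820, 19260 and 16980 at e15.5 and 1142, 1224 and 1055 at 7 weeks.

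Many bright fetal members were at the floor in the adult. The value of miR-376b (chr12:109723508-109723528, plus strand) was 11.5, 11.68 and 11.69 at e15.5 and stood at the floor in every 7-week liver. The same held for miR-495 (10.94, 11.32 and 11.05), which lies a few kilobases before it, for miR-410 (9.7, 10.33 and 9.72) and for miR-376c (9.14, 9.29 and 9.18).

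A fold can be given only for members that stayed above the floor. This leaves out the bright fetal members that were at the floor in the adult, so these folds are not those of the whole cluster. The value of miR-543 was 10.42, 10.16 and 9.96 against 5.95, 6.04 and 6.14, 17.6-fold lower. For miR-434-3p it was 9.05, 9.28 and 9.07 against 3.87, 4.72 and 3.67, 33.2-fold lower, and for miR-376a 8.14, 8.06 and 8.06 against 4.88, 5.2 and 5.11, 8.14-fold lower. Of the 8 such probes, miR-300, miR-541 and miR-539 were also lower. The ages overlapped in none of the 8, where 74.3% of all probes above the floor in all 6 livers did not overlap.

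The eighth, miR-433, was 9.18, 8.98 and 8.76 at e15.5 and 1.82, 3.6 and 0.24 at 7 weeks, yet was not called (-7.09 ± 3.19, adjusted p = 0.11). The spread is estimated over all 12 livers. Without 2-week mouse 3, a liver outside this comparison, miR-433 was called lower (limma, adjusted p = 0.00013). Without any other single liver it was not called. After quantile normalisation it was called lower (adjusted p = 0.0019).

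Against the direction of the cluster, miR-154 (chr12:109738438-109738459, plus strand) was 8.29, 8.22 and 8.16 at e15.5 and 9.82, 9.71 and 9.83 at 7 weeks, 2.96-fold higher (adjusted p = 5.7e-07). Every adult liver was above every fetal one. In the order of hairpins its neighbours were miR-485, at the floor in 2 livers of each age, and miR-496, at the floor in all 6 livers. Then came miR-377, at 10.27, 10.19 and 10.33 at e15.5 and above the floor in a single adult liver (2.21). The linear signal of miR-154 was 905, 837 and 910 at 7 weeks, most of the cluster's adult sum. Whether this probe hybridises to other RNAs was not tested.

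**Figure D3:**
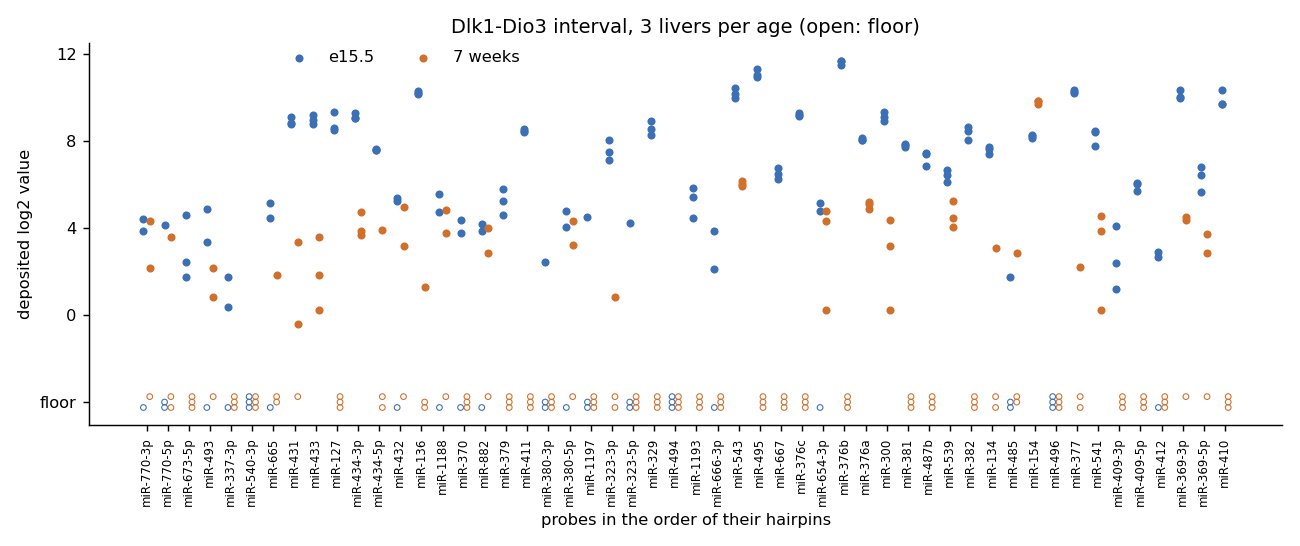
Deposited log2 values of the 52 Dlk1-Dio3 probes in the order of their hairpins, with 3 e15.5 livers (blue) and 3 livers of 7 weeks (orange) each and floor values as open points. Bright fetal probes from miR-431 to miR-410 lie far above their adult values, and miR-154 is the single probe with all 3 adult livers above all 3 fetal ones.

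Other imprinted loci had 7 probes, of which 3 were lower and none higher, beside 26.2% lower over all probes. The Mest-hosted miR-335-5p was 8.44, 7.92 and 7.81 against 5.66, 5.87 and 5.21, 5.58-fold lower. From the H19 transcript, miR-675-3p was 4.29, 4.98 and 2.42 at e15.5 and at the floor at 7 weeks, and the call of the Igf2-hosted miR-483 ended without any of 10 single livers (adjusted p up to 0.14). The list named for the Sfmbt2 cluster on chromosome 2 had 17 probes, but RefSeq placed miR-466k, miR-467f and miR-467g on other chromosomes. Of the 17, 3 were lower, below the 26.2% of all probes, and 14 were not called: miR-669f was 6.16, 6.85 and 6.15 at e15.5 and at the floor at 7 weeks, and the call of miR-669a was lost without 11 of 12 livers (adjusted p up to 0.13).

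Markers of other cell types that the tissue could hold were listed too. Their counts are to be read beside 18.6% higher and 26.2% lower over all probes. Both endothelial probes were higher: miR-126-3p, which tunes VEGF signalling, was 12.27, 12.34 and 12.24 against 13.3, 13.24 and 13.43 (2.06-fold), and miR-126-5p was 3.96-fold higher. Of 5 stellate and mesenchymal probes, miR-143 and miR-145 of the smooth muscle cluster were higher (2.37-fold and 2.70-fold), and the arms miR-199a-3p and miR-199a-5p were lower (1.80-fold and 2.55-fold). The last, miR-214, was at the floor only in 7-week mouse 3 and was not called (adjusted p = 0.24). The summed signal of these 5 was 1327 to 1721 at e15.5 and 1427 to 1712 at 7 weeks, so the ages overlapped.

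Of 5 biliary and epithelial probes, miR-429 was 5.88, 5.66 and 5.37 at e15.5 and at the floor in all adult livers, whereas miR-200b, with the same seed, was 6.59, 6.14 and 6.67 against 6.57, 6.76 and 6.54 and was not called (adjusted p = 0.57). A further member, miR-200a, was called higher (floor, floor and 4.06 against 5.61, 5.72 and 4.74), but not without e15.5 mouse 1 or mouse 2 (adjusted p up to 0.079). The muscle list gave 2 lower of 3 probes, beside 26.2% of all probes. These were miR-133a (1.63, 1.73 and 4.3 at e15.5) and miR-206, both at the floor in all adult livers. Both calls were lost after quantile normalisation, and that of miR-206 without 11 of 12 livers. None of the 5 neural and endocrine probes was called, with at most 4 above the floor in any liver.

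In the lists not yet described few probes were called. The pluripotent clusters gave 2 lower of 4, beside 26.2% of all probes. These were miR-290-5p and miR-291a-3p, both dim (at most 3.87) and both lost without 11 of the 12 livers. From the Hox clusters miR-10a was 4.29, 4.93 and 4.44 against 6.96, 7.07 and 7.19, 5.73-fold higher, while miR-196a and miR-196b were at the floor in all 6 livers. The single miR-221 probe was called lower from fetal values of -0.81, -1.74 and the floor, a call lost without 11 of 12 livers (adjusted p up to 0.17). None of 3 miR-181, 2 miR-34, 2 miR-183/96 and 6 X-linked testis probes was called by limma, where the p53-responsive miR-34c was 8.95, 8.85 and 8.81 against 8.88, 8.82 and 9.06.

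The next comparison asked whether miRNAs that share a transcript or a hairpin differed alike. A single scaling factor per liver cancels in the difference of their log2 values within a liver. Background subtraction and quantile normalisation need not cancel, and the authors' own steps are not known here. Of 37 listed pairs 19 had both members above the floor in all 6 livers, and in 13 of them (68.4%) the ages did not overlap, a share no higher than the 74.3% of single probes above the floor in all 6. By the exact two-sided permutation test each of the 13 had p = 0.1, the smallest possible, and 0.146 adjusted over the pairs. In 8 pairs the change was over 1.

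The largest change was between the arms of 1 hairpin: miR-142-3p exceeded miR-142-5p by 5.98, 6.66 and 6.31 at e15.5 and by 2.64, 2.37 and 2.03 at 7 weeks. As given above, the 3p arm was lower in the adult and the 5p arm was not called. The next was miR-144 against miR-451, whose hairpins lie side by side on chromosome 11: their difference was 0.18, 0.9 and 0.98 at e15.5 and -3.24, -2.88 and -3.18 at 7 weeks. For miR-15b against miR-16 it was 0.01 ± 0.20 and -2.32 ± 0.21 (SD, n = 3), where miR-16 is also made from a second locus on chromosome 14.

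The pair miR-99a and let-7c changed from -0.08 ± 0.72 to -3.09 ± 0.05, with let-7c also encoded on chromosome 15. The pair miR-193b and miR-365 changed from 1.16 ± 0.17 to -0.70 ± 0.13, with miR-365 also encoded on chromosome 11. In the miR-106b cluster, miR-106b against miR-93 changed from -1.29 ± 0.37 to 0.21 ± 0.21. Shifts between precursor arms were smaller for miR-126 (3p against 5p, 4.35 ± 0.48 to 3.40 ± 0.08) and miR-199a (5p against 3p, -0.54 ± 0.17 to -1.04 ± 0.24). Each miR-199a arm is encoded on chromosomes 1 and 9, so its shift cannot be assigned to a single precursor. The ages overlapped for miR-192 and miR-194 (-0.64 ± 0.19 and -0.41 ± 0.14), for miR-143 and miR-145, for miR-23b and miR-27b, for miR-29a and miR-29b, for miR-93 and miR-25 and for let-7b and let-7c. Here too miR-194 is encoded on chromosomes 1 and 19, and miR-29b on chromosomes 1 and 6. With the same miR-29b probe, miR-29c against miR-29b changed from 0.36 ± 0.22 to 1.51 ± 0.13 without overlap.

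**Figure D4:**
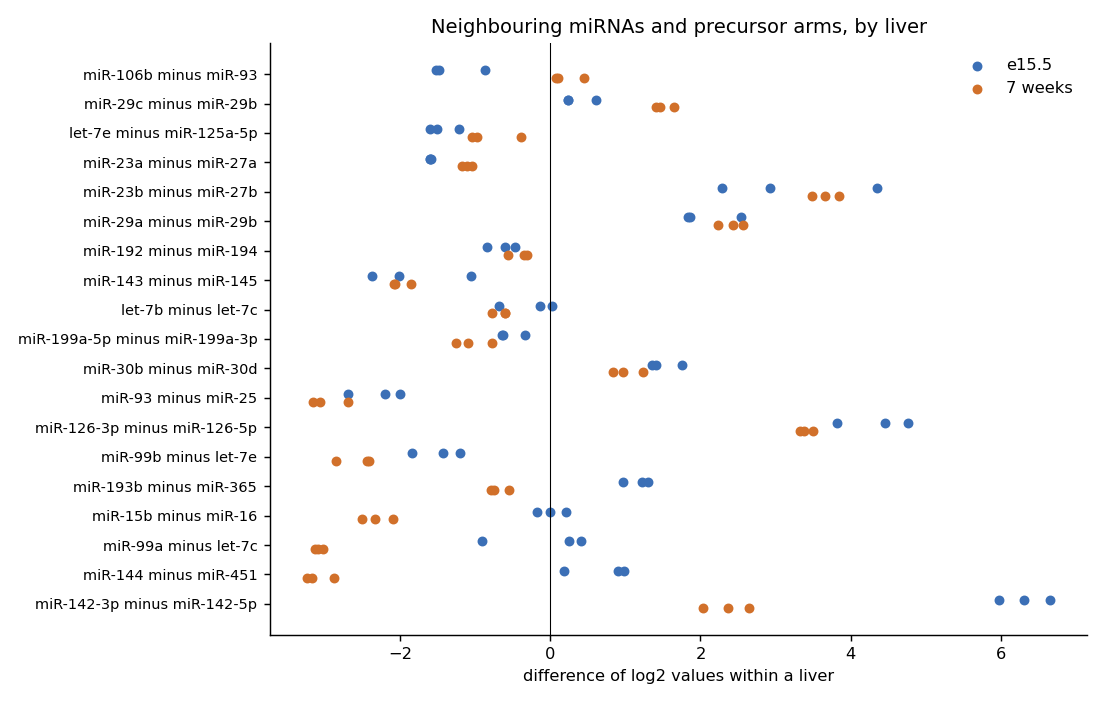
Difference of log2 values within each liver for the 19 pairs of neighbouring miRNAs or precursor arms, 3 e15.5 livers (blue) and 3 livers of 7 weeks (orange) per pair, ordered by the change between the ages. In 13 pairs the ages do not overlap, with the largest changes for miR-142-3p and miR-142-5p (-3.97), miR-144 and miR-451 (-3.79) and miR-99a and let-7c (-3.01).

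Grouped by seed, 219 probes had a sequence in the RefSeq table, and 23 seeds were shared by at least 2 probes. Of the 23, 8 held only higher calls, 7 only lower calls, 4 held both and 4 held none. The 4 with both were the seeds of let-7 (GAGGUAG), miR-15 (AGCAGCA), miR-99/100 (ACCCGUA) and miR-125 (CCCUGAG). Seeds with several members moving alike were those of miR-29 (3 of 3 higher), miR-30 (3 of 3 with a sequence higher), miR-27, miR-26 and miR-193 (2 of 2 higher each), miR-17/20/93/106 (4 of 4 lower) and miR-19 (2 of 2 lower). Among probes above the floor in all 6 livers, median GC content of the mature miRNA was 43.5% for 36 higher, 40.9% for 28 lower and 47.7% for 36 not called, a description with no test.

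By chromosome, the X held 38 located probes, of which 12 were lower and 3 higher (miR-98, miR-188-5p and miR-361), beside 26.2% lower and 18.6% higher over all probes, and nothing particular to the X is read from these counts. Of the 12, 5 were above the floor in all 6 livers: miR-223, miR-19b, miR-322, miR-374 and miR-532-5p. Of these miR-19b is also encoded on chromosome 14. The last of the 5, from the Clcn5 intron cluster, was 6.02, 6.04 and 6.15 against 4.46, 4.23 and 4.44, 3.24-fold lower. Since the fetal samples were of mixed sex and the adult ones male, the differences of X-linked probes cannot be told apart from sex.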

How the data were processed

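The deposited table holds log2 values of 355 mouse probes in 12 livers. Per the submitters' processing notes Partek 6.6 was used; the sources used here do not give how the authors subtracted background and scaled the samples. A model with a mean for each age was fitted over the 12 livers with limma 3.58.1 under R 4.3.3 (eBayes, trend), and the two-sided p-values of 7 weeks minus e15.5 were adjusted (Benjamini-Hochberg) over the 355 probes, with a threshold of 0.05. Single values per liver and pairs were compared by exact permutation (scipy 1.17.1). Linear values are 2 to the power of the deposited value. The members and the 30 lists were chosen with earlier results of these data known. Named were miR-122, the 15 most raised and 15 most lowered calls above the floor in all 6 livers, the 10 brightest calls at the floor at 1 age, the 10 brightest probes per age, list members (of long lists the 6 largest calls and the exceptions) and pair members; others were chosen after their values were seen. Mouse numbers did not pair livers of the 2 ages (correlations of deviations -0.07, 0.09 and -0.41). RefSeq gene names (GRCm38.p6) placed 333 probes. The fit was tested on simulated data with a capped spread, where recovery of known changes was scored only on bright probes. That test does not cover calls that rest on floor values. Alternatives were filters, quantile normalisation, centring, pseudocounts, no trend, only the 6 livers, the mouse number as a block and leaving out livers; leaving out the 2 livers with most floor values was added after seeing the data.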

Additional observations from a re-analysis of the deposited data

How the results depend on the processing

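Against 159 calls (66 higher, 93 lower), lower calls were 58 with the upper 50% of probes only, and with only the 140 probes above the floor in all 6 livers there were 89 calls, 34 of them lower; both filters test fewer probes. Other alternatives gave 124 to 166 calls, and quantile normalisation kept 124 of the 159 and added 28. Among the named probes, the only ones tried, 2 turned to the opposite sign after quantile normalisation and were called, miR-720 (-1.31) and miR-148b (0.66); the cause was not tested. Leaving out each of the 12 livers in turn gave 133 to 169 calls, 63 to 67 higher and 69 to 104 lower, the most without e15.5 mouse 1. Then miR-122 differed by 2.49 to 2.78, 13 to 16 pairs did not overlap, the total signal differed by 79201.5 to 94725.5 and the number of probes above the floor by -85.3 to -34.3. The mouse number pairs no livers here; with it as a replicate block 151 probes were called, 65 higher and 86 lower, and miR-122 differed by 2.60 (adjusted p = 5.4e-06). Centring left miR-122 at 2.33 and quantile normalisation at 1.31. Depth is unknown, floor values have no order, and several calls from dim fetal values ended on leaving out almost any single liver. For miR-206, miR-290-5p and miR-291a-3p (adjusted p = 0.039, 0.039 and 0.041) that was any liver but e15.5 mouse 1. Without e15.5 mouse 1 their calls held (limma, adjusted p = 1.7e-08, 1.7e-08 and 7.1e-07).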

Other observations

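Of the 48 unlisted probes with no floor value in the 6 livers, 17 were called, 12 higher and 5 lower at 7 weeks, against 87 of 140 with the listed ones included. The probes named here were chosen after their values were seen. The largest differences were those of miR-374, an X-linked miRNA (7.21, 7.05 and 7.65 at e15.5 against 4.63, 5.04 and 5.56, 4.67-fold lower), the entry miR-2132 (7.07, 7.15 and 6.62 against 8.86, 9.74 and 8.64, 4.37-fold higher) and miR-350 (5.17, 5.02 and 4.51 against 6.74, 6.5 and 7.14, 3.71-fold higher). None of these overlapped between the ages. Also higher were miR-151-5p (3.01-fold), hosted by the kinase gene Ptk2, and miR-139-5p (2.69-fold).

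With floor values at e15.5, miR-203, known from skin epithelium, was at the floor, 2.66 and 2.42 in the fetal livers and 7.78, 7.84 and 7.63 in the adult ones, and miR-338-3p was above the floor in 1 fetal liver (3.39) and 5.74, 5.93 and 5.67 in the adult. In the opposite direction the hypoxia-induced miR-210 was 5.22, 4.98 and 3.65 at e15.5 and at the floor in all adult livers, and the epithelial miR-205 was 3.72, 3.23 and 4.06 and then at the floor. The probes miR-1196 (7.6, 7.68 and 7.73) and miR-1983 (7.81, 7.73 and 7.31) were bright only in the fetal livers of this comparison. The entry miR-762 was at the floor, 2.11 and 3.76 at e15.5 and 7.85, 8.59 and 7.48 at 7 weeks, with no overlap, and was not called (adjusted p = 0.20).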
